A study of Mus musculus with 15 samples.

Results

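The genes described here encode the parts that build and gate the primary cilium, the single antenna-like organelle that most resting fibroblasts carry. They are 35 genes chosen by name for their part in the cilium, of 55266 genes in the annotation: 13 subunits of the intraflagellar transport complex B (IFT-B), 6 of complex A (IFT-A), 2 transport motors, the ciliary membrane GTPase Arl13b, 6 subunits of the BBSome, 5 transition zone proteins and 2 centriole proteins. All 35 were found in the annotation, and 24 of them had enough reads to be tested.

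RNA was sequenced from NIH3T3 cells, an established line of mouse fibroblasts, in 15 libraries that form 5 groups of 3. Per the series' design text, both cell lines were stable and made a histone H2A fusion under doxycycline control: H2A-mCherry, a red fluorescent control, or H2A-TerminaTOR, an inhibitor of the kinase complex mTORC1 that acts in the nucleus. All cells were starved, and in 4 of the 5 groups the growth factor PDGF followed. In H2A-mCherry cells, 1 group had no PDGF, another had PDGF alone, and the other two had PDGF together with either rapamycin, an mTORC1 inhibitor that enters all compartments, or cycloheximide (CHX), a blocker of protein synthesis. The only H2A-TerminaTOR group had CHX and PDGF. All groups thus carried an inducible H2A fusion. The sources used here give no doses, times or length of starvation, and do not say whether every group received doxycycline or whether a line was 1 clone. Nor do the labels name separate cultures for the 3 libraries of a group, so the p-values speak of the spread among these libraries, and that spread may be technical.

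A primary cilium grows from the mother centriole when a cell leaves the division cycle and is taken down when growth factors bring the cell back in. Kinesin-2 carries IFT-B trains with tubulin and membrane cargo to the tip, dynein-2 and IFT-A bring them back, and the BBSome moves membrane receptors out of the cilium. The transition zone at the base decides which proteins enter. In fibroblasts the Hedgehog pathway and the PDGF receptor alpha signal from this organelle. Cilia themselves were not measured here.

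Many cilium genes carry an X-box in their promoter, the pair of inverted half-sites read by RFX transcription factors. RefSeq promoters on GRCm38.p6, from 250 bases before to 50 bases after the gene start, were matched for 30 of the 35 genes. The searched form was GTTNCC, 0 to 3 bases of any kind, then GGNAAC, which reads the same on both strands. It was found exactly in 3 of the 30 promoters, those of Tctn1, Bbs7 and Ift57, against 0.936% of the promoters of 27025 genes. With at most 1 mismatch it was found in 8 of the 30 (26.7%), against 6.15% of all genes. The windows below show the exact matches and 2 of the near matches, each 5′ to 3′ on the strand of its gene, with the matched letters in capitals.
Tctn1: gcgctaggctgtgactGTTGCCCGGGCAAC
Bbs7: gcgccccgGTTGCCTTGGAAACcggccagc
Ift57: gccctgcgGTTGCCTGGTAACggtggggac
Ift22: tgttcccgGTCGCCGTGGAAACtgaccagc
Bbs4: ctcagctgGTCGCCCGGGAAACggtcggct
The Tctn1 window is chr5:122264411-122264440 on the minus strand, and its match begins 37 bases after the gene start. The Bbs7 window is chr3:36613489-36613518 on the minus strand, with a match that begins 121 bases before the start. The Ift57 window is chr16:49699226-49699255 on the plus strand, with the match 60 bases before the start. The Ift22 window is chr5:136908109-136908138 on the plus strand and the Bbs4 window chr9:59353464-59353493 on the minus strand, and each has 1 mismatch. The other genes with a near match were Ift52, Bbs1 and Tmem216. For comparison, the letters TGANTCA, read by AP-1, were in 1 of the 30 promoters (3.33%), that of Bbs5, against 8.97% of all genes, and TGACGTCA, read by CREB factors, in 1 of 30, that of Ift57, against 2.03%, both strands searched. The search windows of different motifs could overlap, and a match is a description of letters, not of binding.

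Reads were counted for individual transcripts, and a gene's count is the sum over its transcripts. Total counts ran from 3466202 to 6777780 per library. Levels are CPM, a gene's counts relative to the library total, after TMM scaling, and they cannot be set against each other between genes, because reads shared by several transcripts of a gene may not have been counted. Mitochondrially encoded genes took 11.1 to 12.2% of the counts without PDGF, 8.69 to 9.30% with PDGF, 9.85 to 11.04% with rapamycin and 6.28 to 6.64% in both CHX groups. All 12 fibroblast markers had reads, and their summed level was 9742 to 9812 CPM without PDGF, 8778 to 9192 with PDGF, 6096 to 6370 with rapamycin, 9030 to 9380 with CHX and 10252 to 10868 in TerminaTOR cells. Of 15 markers of multiciliated cells 4 had no read, Gmnc, Dnah11, Rsph1 and Tekt1, and the list summed to 16.4 to 35.3 CPM in any library, with 27.3 to 35.3 CPM without PDGF and 18.4 to 23.6 with PDGF alone. Reads were found for 5 of 7 epithelial, 5 of 7 macrophage and 5 of 6 endothelial markers. The epithelial sum was 0.475 to 4.39 CPM over all libraries. The macrophage sum was 6.72 to 11.3 CPM without PDGF and 16.0 to 18.8 with PDGF alone, and up to 26.1 in the other groups, and the endothelial sum was 1.31 to 2.24, 3.11 to 4.39 and up to 4.73. The part of these shifts in the values of the cilium genes was not tested.

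The 24 tested genes had between 174 and 6917 reads over the 15 libraries. They were 10 of the 13 IFT-B genes, 1 of the 6 IFT-A genes, both motors, Arl13b, 3 of the 6 BBSome genes, all 5 transition zone genes and both centriole genes. The other 11 had 1 to 56 reads and could not be tested: Wdr35, Bbs9, Bbs5, Ift57, Ift43, Ift81, Ift140, Ttc21b, Ift88, Ift122 and Bbs7. Because a gene can pass the filter through the group where it is high, counts over the 24 describe the genes that passed and not all 35. In these bulk samples, fewer cells of a kind and less RNA per cell cannot be told apart.

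**Figure D1:**
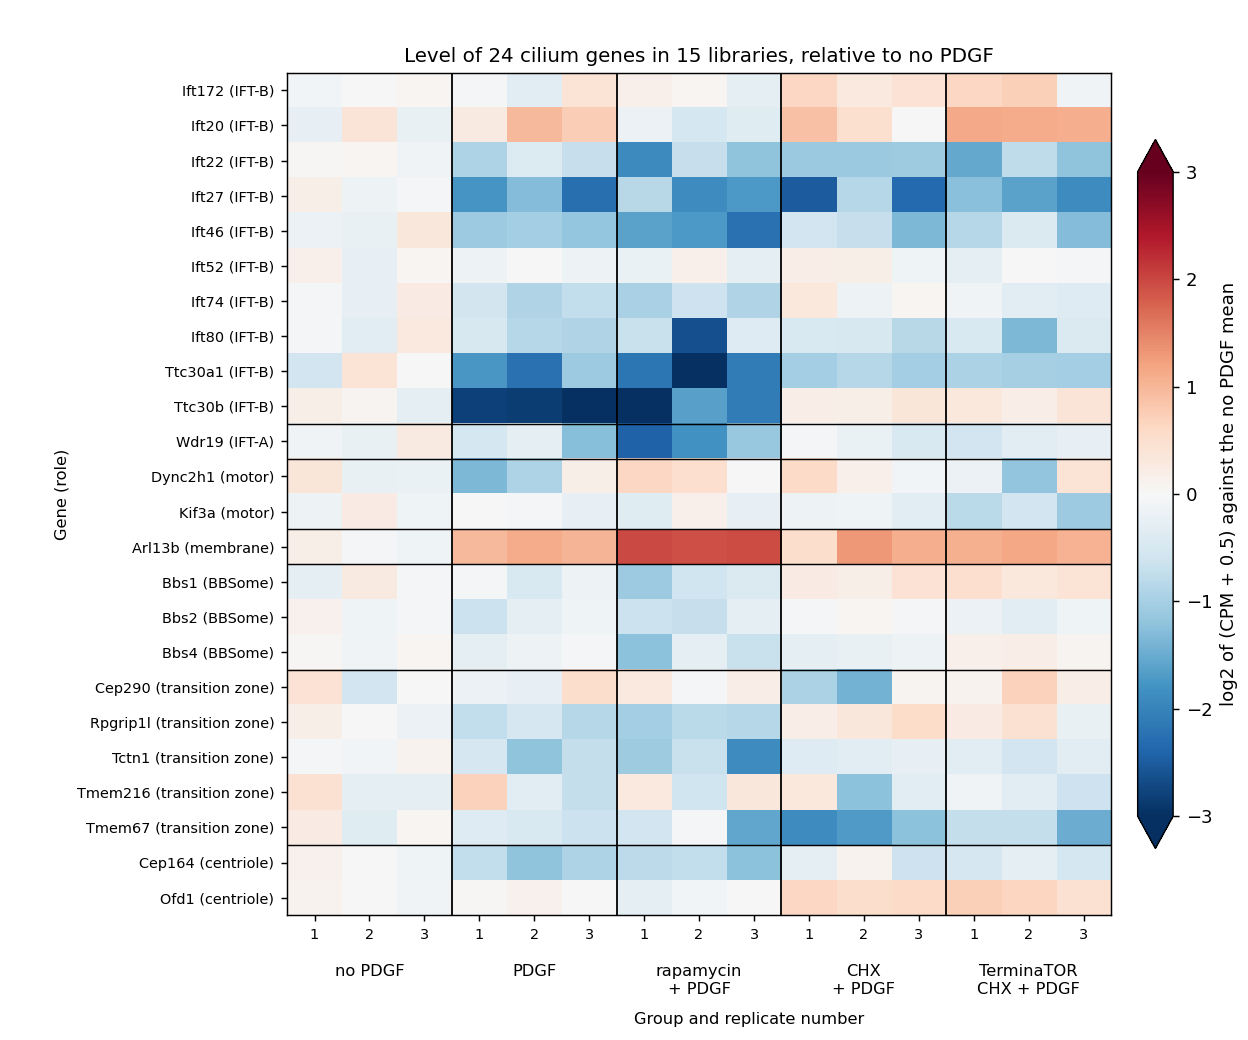
Level of the 24 tested cilium genes (rows, grouped by role) in the 15 libraries (columns, by group and replicate number), as log2 of CPM plus 0.5 relative to the mean of the 3 libraries without PDGF. Colours run from blue (lower) to red (higher). Ttc30b is dark blue in the PDGF libraries and in rapamycin replicate 1, lighter blue in the other rapamycin libraries and near white in both CHX groups. Arl13b is red in every library with PDGF and darkest with rapamycin.

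The question of the first comparison is how starved control cells respond to PDGF. PDGF lowered 10 of the 24 tested cilium genes and raised 1, Arl13b, while 13 were not called. The falls took in 6 IFT-B genes (Ttc30b, Ift27, Ttc30a1, Ift46, Ift80 and Ift74), the IFT-A gene Wdr19, the transition zone genes Tctn1 and Rpgrip1l and the centriole gene Cep164. Neither motor and none of the 3 tested BBSome genes was called. Over all 10603 genes tested, 16.9% were called lower and 20.1% higher at an edgeR adjusted p under 0.05. Of the tested cilium genes 41.7% were called lower and 4.17% higher. The median log2 change of the 24 was -0.59, against -0.01 over all genes, and 19 of the 24 were below 0. In 13 of the 24 the groups did not overlap, against 46.2% of all genes. When libraries were scaled by their totals alone, the median of all genes moved to -0.26, 29.3% of all genes were called lower, and 13 of the cilium genes were. Among genes with a mean count of at least 50, only 1 of 9 cilium genes was called lower, beside 28.5% of 5006 genes.

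The IFT-B gene Ttc30b (ENSMUSG00000075273.4, GRCm38 chr2:75935849-75938585, minus strand) is 1 of a set of near-identical copies that encode the IFT70 subunit. It had 9.81, 9.16 and 7.11 CPM in the libraries without PDGF and 0.826, 0.775 and 0.621 CPM with it. These levels rest on 54, 42 and 38 reads without PDGF and on 3, 3 and 3 reads with it. Every library with PDGF lay far below every library without it. The log2 change was -3.52 ± 0.44 (SE, n = 3 per group), an 11.5-fold fall (edgeR adjusted p = 2.57e-10). The copy beside it, Ttc30a1 (chr2:75978247-75981967, minus strand), had 4.36, 9.16 and 6.73 CPM without PDGF and 1.65, 1.03 and 2.90 with it, a log2 change of -1.79 ± 0.46 (edgeR adjusted p = 0.000993). Its groups did not overlap either, although the libraries without PDGF spread widely. The transcripts of the pair were 94.3% identical over 2056 aligned bases, and 10.5% of the 100-base stretches of Ttc30b also occurred in Ttc30a1. Another copy, Ttc30a2, held 16.6% of the stretches of Ttc30b and 19.3% of those of Ttc30a1. How reads were shared among the copies is therefore uncertain.

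Ift27 encodes a small GTPase of IFT-B that links the trains to the BBSome. It had 6.72, 5.24 and 5.61 CPM without PDGF and 1.38, 2.07 and 0.829 with it, with no overlap (log2 change -2.05 ± 0.53, edgeR adjusted p = 0.0011). Transcripts not annotated as protein coding lost more reads, and had 53 reads without PDGF and 2 with it, while the coding transcripts had 38 and 15. With coding reads alone the log2 change was -0.98 and the call was lost (edgeR adjusted p = 0.191). Ift46, a subunit of the IFT-B core, had 4.54, 4.36 and 6.73 CPM without PDGF and 2.203, 2.33 and 2.07 with it, a log2 change of -1.24 ± 0.46 (edgeR adjusted p = 0.0252). Its coding transcripts had 5 reads without PDGF and 4 with it, against 76 and 23 on its other transcripts. Its PDGF libraries lay close together and below the others, but the call was lost without replicate 3 of the no PDGF group (-1.002, adjusted p = 0.136), and without PDGF replicate 1, 2 or 3 (adjusted p = 0.0643, 0.0585 and 0.0862).

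Ift74, which with Ift81 binds tubulin cargo, had 11.6, 10.03 and 14.4 CPM without PDGF and 7.99, 6.20 and 7.04 with it. The groups were apart, and the log2 change was -0.77 ± 0.26 (edgeR adjusted p = 0.0131). Ift80, a peripheral IFT-B subunit, had 15.6, 12.7 and 19.4 CPM without PDGF and 11.3, 8.53 and 8.29 with it (log2 change -0.78 ± 0.31, edgeR adjusted p = 0.0454). All 741 reads counted for Ift80 fell on transcripts annotated as retained introns. Reads shared with its coding transcripts may not have been counted, so this does not show that those were absent. Leaving out replicate 3 of the no PDGF group ended the call of both genes (Ift74 adjusted p = 0.0981, Ift80 0.171), as did leaving out PDGF replicate 2 (0.0667 and 0.142). For Ift80 the call was also lost without no PDGF replicate 1 (0.08) or PDGF replicate 3 (0.164), with DESeq2 (0.0543) and with limma-voom (0.0655).

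The other IFT-B genes were not called in this comparison. Ift22, a Rab-like GTPase, had 7.11 to 8.07 CPM without PDGF and 3.86 to 5.69 with it, groups that did not overlap, with an edgeR adjusted p of 0.106. Ift20, which also works at the Golgi, had 2.36 to 3.93 and 3.58 to 6.20 CPM. Ift52, with 45.2 to 59.1 CPM without PDGF and 47.8 to 52.5 with it, and Ift172, with 11.8 to 12.9 and 9.82 to 16.8, overlapped fully.

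Wdr19 (IFT144) was the only IFT-A subunit with enough reads. It had 13.3, 12.2 and 17.2 CPM without PDGF and 9.64, 11.6 and 5.59 with it, all lower than the lowest of the others. The log2 change was -0.69 ± 0.26 (edgeR adjusted p = 0.0304), and it rested on single libraries: without PDGF replicate 3 it was -0.41 (adjusted p = 0.302), without no PDGF replicate 3 it was -0.52 (0.17), and without PDGF replicate 1 the adjusted p was 0.052. Among the motors, Kif3a, a kinesin-2 subunit, had 15.1 to 19.9 CPM without PDGF and 14.1 to 16.8 with it, and Dync2h1, the dynein-2 heavy chain, had 2.40 to 3.82 and 0.826 to 3.31. Both overlapped between the groups.

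At the centriole, Cep164, a distal appendage protein that docks the mother centriole to the membrane, had 9.99, 8.94 and 8.23 CPM without PDGF and 5.23, 3.62 and 4.56 with it. The groups were well apart (log2 change -1.02 ± 0.31, edgeR adjusted p = 0.00627). Ofd1 (chrX:166390033-166440704, minus strand), a centriole and satellite protein, had 77.2 to 90.8 CPM without PDGF and 84.7 to 92.0 with it, a log2 change of 0.06 ± 0.10 (edgeR adjusted p = 0.667). In the transition zone, Tctn1 had 20.7, 20.3 and 23.2 CPM without PDGF and 14.9, 9.05 and 12.8 with it. No library with PDGF reached the lowest without it, and the log2 change was -0.80 ± 0.22 (edgeR adjusted p = 0.00194).

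Rpgrip1l, a scaffold of the transition zone, had 10.2, 8.94 and 7.85 CPM without PDGF and 5.23, 6.20 and 4.76 with it, groups that were apart (log2 change -0.74 ± 0.28, edgeR adjusted p = 0.0328). As for Ift27, much of the difference lay outside coding transcripts, which had 107 reads without PDGF and 64 with it, against 32 and 2 for other transcripts. With coding reads alone the log2 change was -0.39 (edgeR adjusted p = 0.295), and the call was also lost without no PDGF replicate 1 (0.116) or 2 (0.0623) or PDGF replicate 1 (0.0901) or 3 (0.14). The retained introns of Tctn1 likewise had 105 and 33 reads, but its coding transcripts, with 226 and 118, were still called lower on their own (log2 change -0.60, edgeR adjusted p = 0.0318). Cep290, Tmem216 and Tmem67 were not called. Tmem67, the receptor-like meckelin, had 3.93 to 6.18 CPM without PDGF and 3.11 to 3.86 with it, and Cep290 and Tmem216 overlapped.

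Arl13b (ENSMUSG00000022911.11, chr16:62793685-62847040, minus strand), a GTPase of the ciliary membrane that activates Arl3, moved the other way. It had 13.8, 11.8 and 11.2 CPM without PDGF and 24.5, 27.1 and 25.5 with it, so that every stimulated library was far above every other. The log2 change was 1.06 ± 0.18, a 2.09-fold rise (edgeR adjusted p = 1.06e-06), and 98.9% of its reads were on coding transcripts. The BBSome genes changed little: Bbs1 had 11.99 to 17.7 CPM without PDGF and 10.6 to 14.0 with it, Bbs2 28.1 to 34.0 and 19.6 to 28.2, and Bbs4 11.998 to 13.7 and 10.7 to 12.4. None of the 3 was called, and each pair of groups overlapped.

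**Figure D2:**
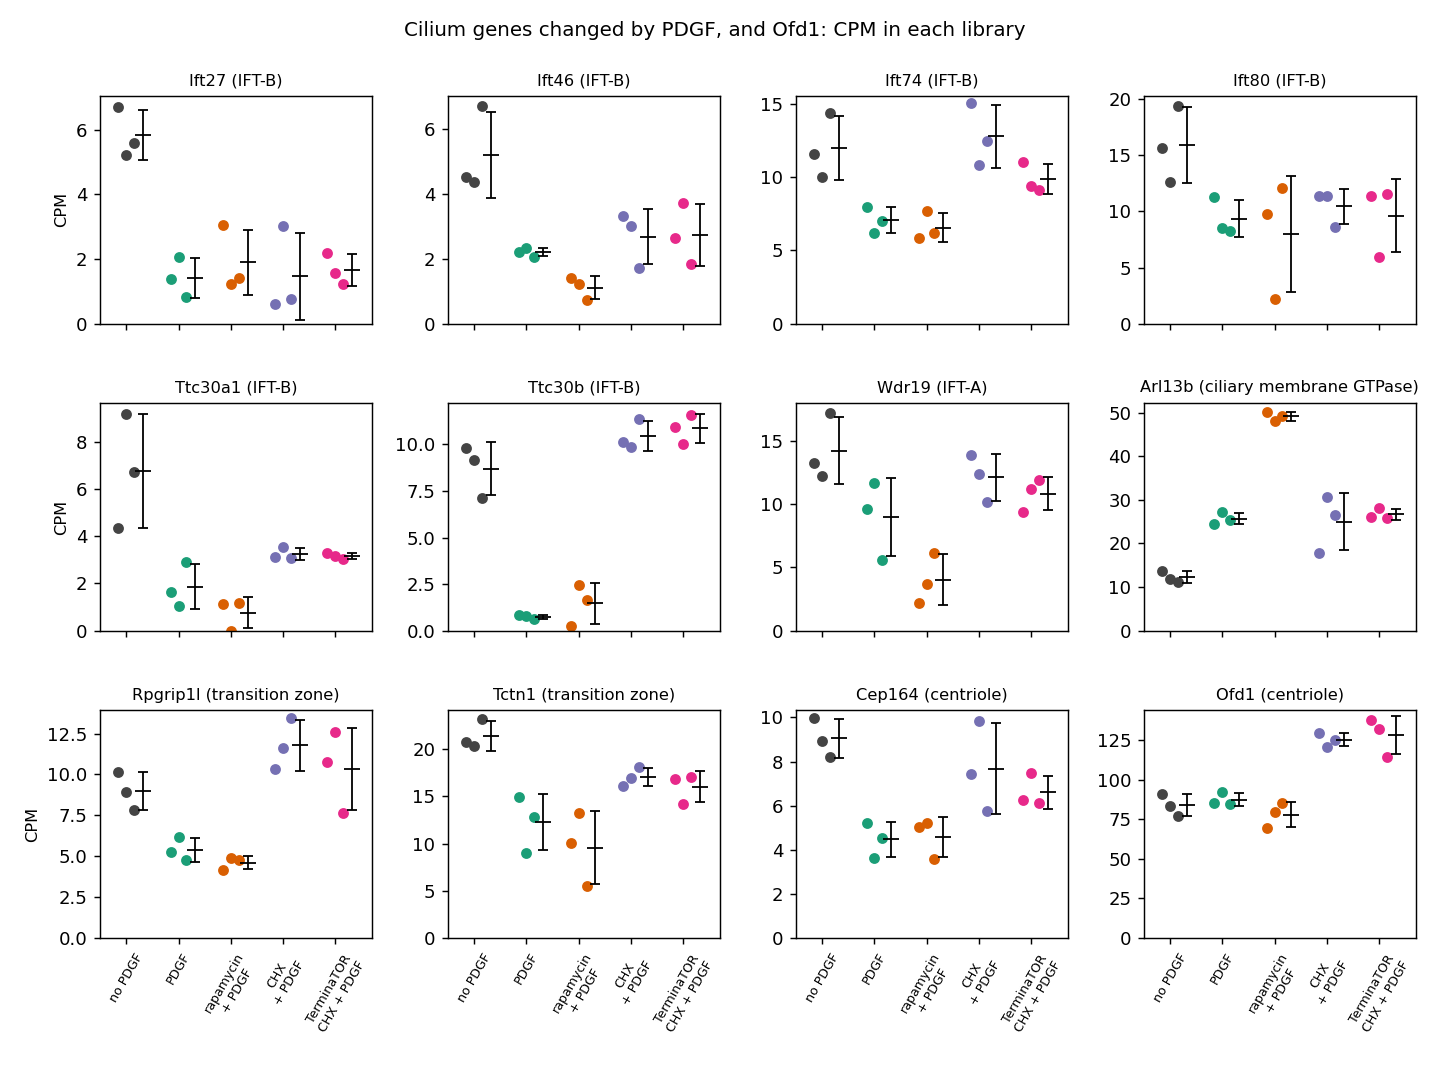
CPM in each library (points) with the mean and SD of the 3 libraries of a group (horizontal line and bar beside them), for the 11 cilium genes changed by PDGF and for Ofd1, each panel on its own axis from 0. The groups from left to right are no PDGF, PDGF, rapamycin with PDGF, CHX with PDGF, and TerminaTOR with CHX and PDGF. Ttc30b sits between 0.621 and 0.826 with PDGF and between 9.83 and 11.3 with CHX and PDGF, and Arl13b sits between 48.0 and 50.1 with rapamycin.

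The type of transcript that received the reads limits what these genes can show. Reads shared by several transcripts may not have been counted, so these shares do not give the make-up of a gene's RNA. In 20 of the 24 tested genes most reads fell on transcripts annotated as protein coding. For Ttc30b, Ttc30a1 and Ofd1 this was fixed by the annotation, which gives each only 1 transcript, a coding one. The exceptions were Ift80 (0% coding), Cep290 (5.97%), Tmem216 (7.29%) and Ift46 (21.6%). In 8 of the 11 untested genes most of the few reads were on other transcripts as well. Counting coding transcripts alone left 20 cilium genes to test, of which 6 were called lower with PDGF (Ttc30b, Ttc30a1, Ift74, Wdr19, Tctn1 and Cep164) and Arl13b higher, where 21.1% of 6499 genes were called lower. Some genes share exon bases with a gene on the opposite strand, and whether the reads keep strand is not given: Bbs4 with Adpgk, Cep290 with 4930430F08Rik, Tmem67 with Rbm12b2, Tmem216 with Cpsf7, Tctn1 with Hvcn1, which had 0 reads, and Ofd1 with Trappc2.

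**Figure D3:**
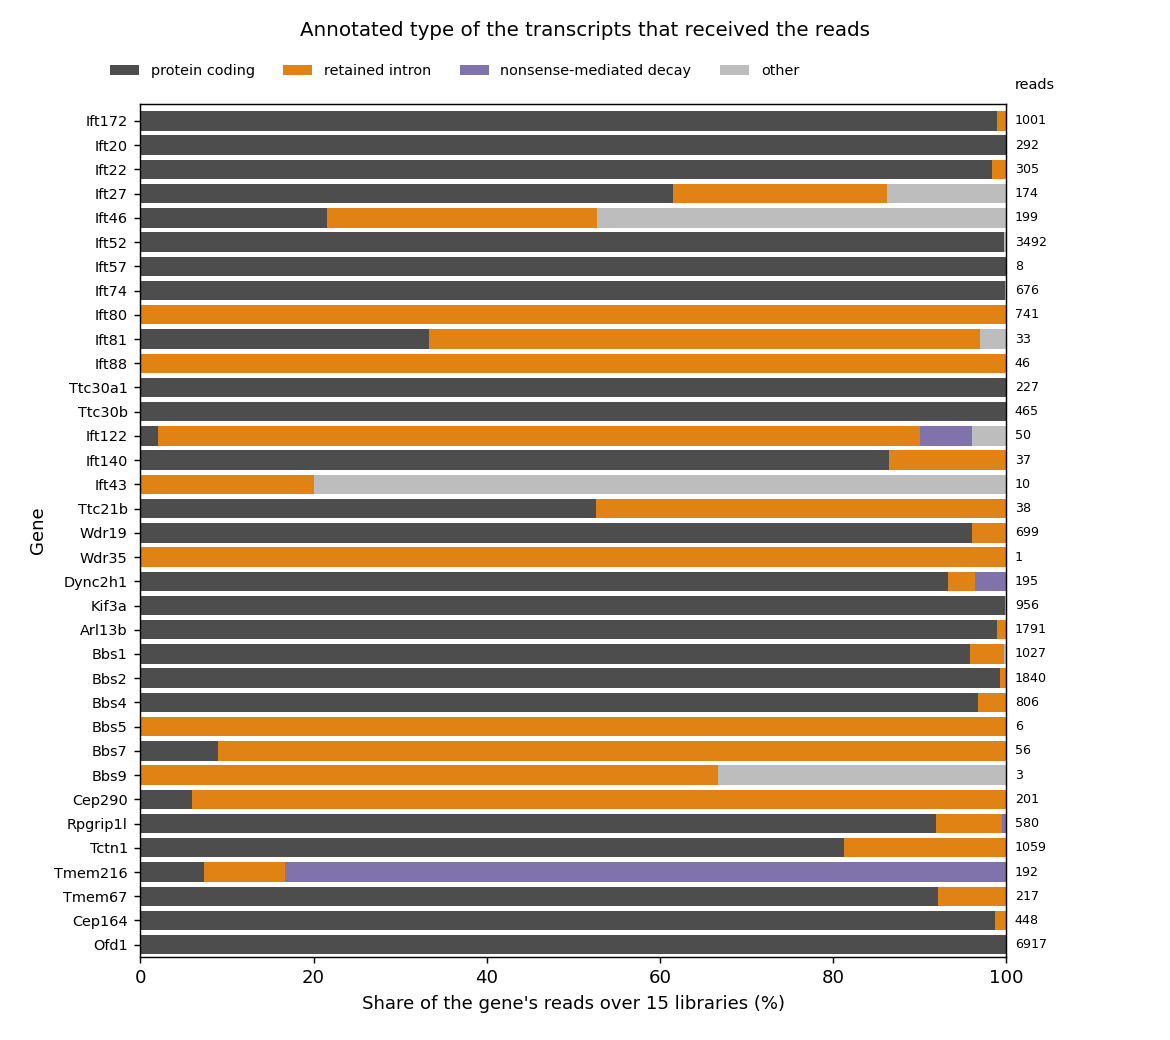
Share of each gene's reads (horizontal axis, %) on transcripts annotated as protein coding, retained intron, nonsense-mediated decay or other, for the 35 cilium genes, with the number of reads over 15 libraries at the right. Ift80, with 741 reads and 12 annotated transcripts, has none on a coding one. Ofd1, with 6917 reads, has 1 annotated transcript, a coding one, so its share was fixed by the annotation.

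Of the 11 genes below the filter, only Ift88 had a ratio of reads with and without PDGF whose interval lay away from 1. This core IFT-B gene, whose loss stops cilium assembly in mice, had 3 reads over the libraries with PDGF and 23 over those without, a ratio of 0.163 after scaling (exact 95% interval 0.0314 to 0.541, counting error only), all of them on retained introns. The interval spanned 1 for the other 10. Ift122 had 8 and 22 reads, Ift81 4 and 12, Ift140 8 and 16, Ttc21b 14 and 9, and Bbs7 11 and 12. Ift57 had 0 and 6 reads, and Wdr35, Bbs9, Bbs5 and Ift43 had at most 4 in either group.

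Rapamycin with PDGF was compared with PDGF alone to ask what mTORC1 inhibition added. Arl13b was higher again, and the IFT genes Ift20 and Wdr19 were lower; 21 of the 24 were not called. Background shares were 16.3% called higher and 16.1% called lower, against 4.17% and 8.33% of the tested cilium genes. The median log2 change was -0.16, against 0.02 over all genes, and the groups were apart for 3 of the 24, against 40.9% of all genes. With scaling by library totals the median of all genes was -0.10 and 5 of the 24 were called lower, where 21.4% of all genes were.

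Arl13b had 50.1, 48.0 and 49.2 CPM with rapamycin and PDGF, against 24.5, 27.1 and 25.5 with PDGF alone. The lowest rapamycin library stood well above the highest of the others, and the log2 change was 0.93 ± 0.16, 1.91-fold (edgeR adjusted p = 2.13e-06). It was called under every alternative setting tried. Ift20 had 2.51, 1.85 and 2.14 CPM with rapamycin and 3.58, 6.20 and 5.18 without it, a log2 change of -1.20 ± 0.43 (edgeR adjusted p = 0.0245). The groups were apart, but the call was lost without PDGF replicate 2 or 3 or rapamycin replicate 2 or 3 (adjusted p = 0.116, 0.066, 0.0727 and 0.0622) and with limma-voom (0.0569). Wdr19 had 2.23, 3.69 and 6.18 CPM with rapamycin and 9.64, 11.6 and 5.59 without it. These groups overlapped, with rapamycin replicate 3 above PDGF replicate 3, and the log2 change was -1.09 ± 0.32 (edgeR adjusted p = 0.00536). It was not called without PDGF replicate 2 (-0.85, adjusted p = 0.0697) or rapamycin replicate 1 (-0.80, 0.0684).

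Ttc30b stayed low, with 0.279, 2.46 and 1.66 CPM, and was not called against PDGF alone (log2 change 0.96 ± 0.61, edgeR adjusted p = 0.243). Ttc30a1 had 1.11, 0 and 1.19 CPM, and Tctn1 10.03, 13.2 and 5.46. Dync2h1 had 4.73, 4.31 and 2.85 CPM, a log2 change of 1.04 ± 0.52 that was not called (edgeR adjusted p = 0.121) unless PDGF replicate 3 was left out (1.85, adjusted p = 0.0284). Bbs4, with 5.29, 10.8 and 8.08 CPM, was called lower only without rapamycin replicate 2 (-0.79, adjusted p = 0.0307) and with scaling by library totals.

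Against the libraries without PDGF, rapamycin with PDGF lowered 14 of the 24 cilium genes and raised 1, where 25.5% of all genes were called lower and 27.8% higher. This comparison shares the rapamycin libraries with the one above and the no PDGF libraries with the PDGF comparison, so their values are not independent. Arl13b was 3.99-fold higher (log2 change 2.00 ± 0.17, edgeR adjusted p = 1.05e-16). The falls were Ttc30a1 (log2 change -3.01 ± 0.54), Ttc30b (-2.56 ± 0.39), Ift46 (-2.23 ± 0.52), Wdr19 (-1.78 ± 0.30), Ift27 (-1.61 ± 0.51), Ift22 (-1.31 ± 0.38), Tctn1 (-1.19 ± 0.23), Cep164 (-0.99 ± 0.32), Rpgrip1l (-0.96 ± 0.30), Ift80 (-0.95 ± 0.32), Ift74 (-0.88 ± 0.26), Bbs4 (-0.71 ± 0.25), Bbs1 (-0.70 ± 0.23) and Bbs2 (-0.53 ± 0.17). All 3 tested BBSome genes were thus lower here, with 5.29 to 10.8 CPM for Bbs4 against 11.998 to 13.7 without PDGF. Single libraries decided the calls of Ift80 (without rapamycin replicate 2 or no PDGF replicate 3, adjusted p = 0.102 and 0.0511), Bbs1 (without rapamycin replicate 1 or no PDGF replicate 2, 0.0884 and 0.0701) and Bbs4 (without rapamycin replicate 1, 0.137). With protein-coding transcripts alone the calls of Ift27 (log2 change -0.42, adjusted p = 0.552) and Rpgrip1l (-0.51, 0.142) were lost, the latter also with the top transcript of each gene (0.0924). With scaling by library totals 18 of the 24 were called lower, where 39.2% of all genes were, and the median of all genes was -0.36.

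Cycloheximide with PDGF was compared with PDGF alone to ask how levels differed when protein synthesis was blocked. No group had CHX without PDGF, so an effect of CHX itself cannot be told apart from a blocked response to PDGF. CHX raised 6 of the 24 cilium genes, Ttc30b, Rpgrip1l, Ift74, Cep164, Ofd1 and Bbs1, and lowered Tmem67. Over all genes 40.6% were called, 21.0% higher and 19.6% lower, against 25.0% and 4.17% of these. The median log2 change was 0.29, against 0.01 over all genes, and the groups were apart for 11 of the 24, against 50.6% of all genes. Scaling by library totals moved the median of all genes to -0.13 and left 4 of the 24 called higher, where 16.2% of all genes were. Mitochondrial transcripts took a smaller share of the counts with CHX, as given above, and their part in these values was not tested.

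Ttc30b had 10.1, 9.83 and 11.3 CPM with CHX and PDGF, against 0.826, 0.775 and 0.621 with PDGF alone. The gap was wider than for any other cilium gene in this comparison, at a log2 change of 3.79 ± 0.43, 13.8-fold (edgeR adjusted p = 1.45e-11). Set against the libraries without PDGF, which had 7.11 to 9.81 CPM, the CHX libraries differed by a log2 change of 0.27 ± 0.28 that was not called (edgeR adjusted p = 0.459). Its near copy Ttc30a1 had 3.10, 3.53 and 3.07 CPM with CHX, above all PDGF libraries but not called (0.74 ± 0.49, edgeR adjusted p = 0.239).

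Rpgrip1l had 10.3, 11.6 and 13.4 CPM with CHX, above every PDGF library (5.23, 6.20 and 4.76), with a log2 change of 1.13 ± 0.28 (edgeR adjusted p = 0.000607). Ift74 had 15.1, 10.8 and 12.5 CPM with CHX, against 7.99, 6.20 and 7.04, a log2 change of 0.86 ± 0.26 (edgeR adjusted p = 0.00486). Its groups were apart, and without CHX replicate 1 the adjusted p was 0.0515. Ofd1, which PDGF alone did not move, had 129, 121 and 125 CPM with CHX, above 85.4, 92.0 and 84.7 with PDGF. The log2 change was 0.52 ± 0.09, 1.43-fold (edgeR adjusted p = 4.6e-06), and it was called under every alternative setting.

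The remaining calls were close to the threshold. Cep164 had 7.45, 9.83 and 5.76 CPM with CHX (log2 change 0.76 ± 0.32, edgeR adjusted p = 0.0481) and Bbs1 had 17.4, 16.6 and 20.0 (0.51 ± 0.21, 0.0483). Both groups lay above PDGF alone, yet the call of Cep164 was lost in 13 of 15 alternative settings and that of Bbs1 in 13 of 16, with adjusted p up to 0.252 without CHX replicate 2 for Cep164 and up to 0.22 without PDGF replicate 2 for Bbs1. Cep164 kept its call without CHX replicate 3 and lost it without each of the other libraries of these groups, and Bbs1 lost it without each of the 6. Tmem67 had 1.03, 1.26 and 1.92 CPM with CHX, below 3.86, 3.62 and 3.11 with PDGF, a log2 change of -1.29 ± 0.50 (edgeR adjusted p = 0.0336). It was lost on leaving out CHX replicate 1 (adjusted p = 0.115) or 2 (0.077) or PDGF replicate 1 (0.0751), 2 (0.0668) or 3 (0.05). Arl13b had 17.8, 30.8 and 26.5 CPM and overlapped the PDGF libraries, with replicate 1 low, and its log2 change was -0.05 ± 0.17 (edgeR adjusted p = 0.853). Leaving out 1 library also brought in calls not made with all of them, with PDGF replicate 3 left out for Ift172 (0.66, adjusted p = 0.0434) and Dync2h1 (1.69, 0.0377), and CHX replicate 3 for Cep290 (-1.59, 0.0428).

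Against the libraries without PDGF, CHX with PDGF raised 2 of the 24 and lowered 4, where 47.4% of all genes were called, 24.6% higher and 22.8% lower. This comparison reuses libraries of those above. Arl13b was 2.02-fold higher (log2 change 1.015 ± 0.18, edgeR adjusted p = 1.73e-06), and Ofd1 was higher by 0.58 ± 0.09, which was lost with scaling by library totals (0.19, adjusted p = 0.0714). Lower were Ift27 (-2.05 ± 0.52), with 0.620, 3.03 and 0.768 CPM against 5.24 to 6.72, Tmem67 (-1.85 ± 0.47), Ift22 (-1.20 ± 0.36), with 3.28 to 3.46 CPM against 7.11 to 8.07, and Ttc30a1 (-1.05 ± 0.42). The call of Ttc30a1 was lost without no PDGF replicate 2 (-0.77, adjusted p = 0.194) or 3 (0.0641) or CHX replicate 1, 2 or 3 (0.077, 0.053 and 0.0914). With scaling by library totals 13 of the 24 were called lower, where 41.5% of all genes were, and the median of all genes was -0.40.

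**Figure D4:**
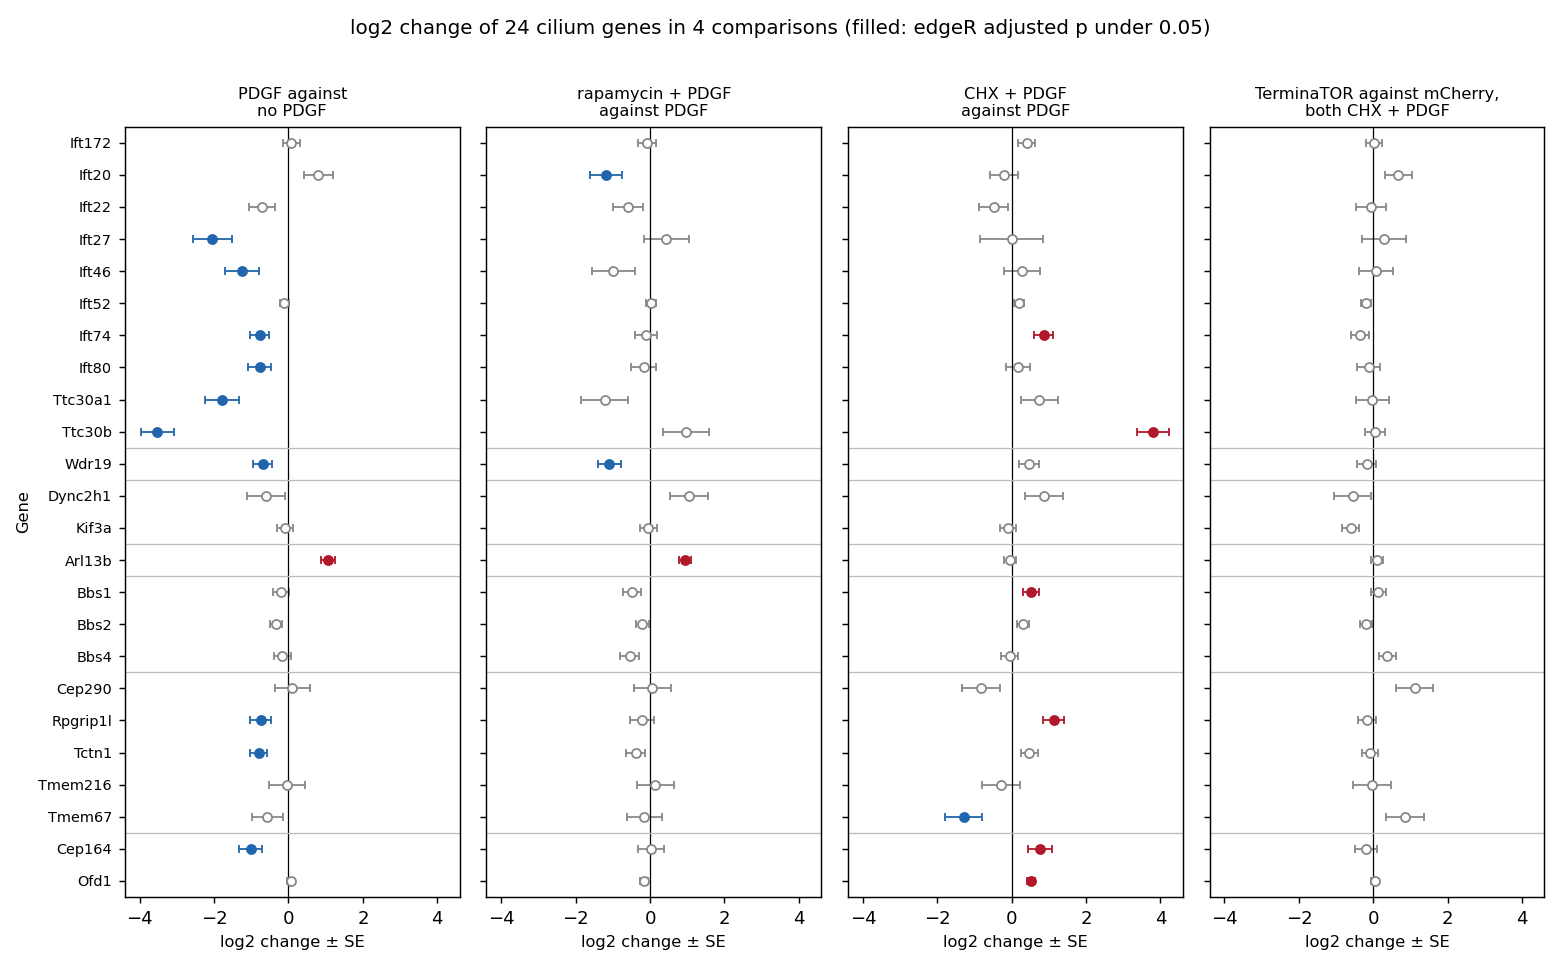
log2 change (points) with its SE (bars) of the 24 tested cilium genes in 4 comparisons, with called genes filled in red (higher) or blue (lower) and the others open. PDGF has 10 blue points and 1 red, rapamycin 2 and 1, CHX 1 and 6, and TerminaTOR none. The PDGF libraries enter the first 3 panels, so points of a gene are not independent between them.

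TerminaTOR cells were compared with control cells, both with CHX and PDGF, to ask what nuclear mTORC1 inhibition changed while translation was blocked. None of the 24 cilium genes was called by edgeR, where 4.92% of all genes were (2.35% higher and 2.57% lower), and none by DESeq2, limma-voom or any other alternative setting tried. At an unadjusted p under 0.05, 1 was higher (Cep290) and 1 lower (Kif3a). The share of all genes at that threshold was not counted, so this count is not read as a result about the cilium genes. Line and inhibitor cannot be told apart here, and the SE of the log2 changes ran from 0.09 to 0.58, so small differences were not detectable. The median log2 change was -0.03, and the groups were apart for 5 of the 24, against 23.7% of all genes.

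Those 5 were Kif3a, Cep290, Ift20, Bbs4 and Bbs2. Kif3a had 9.37, 11.01 and 7.63 CPM in TerminaTOR cells and 15.1, 15.4 and 13.1 in control cells, a log2 change of -0.61 ± 0.22 (edgeR adjusted p = 0.111). Cep290, nearly all of whose reads were on a retained intron, had 3.12, 4.91 and 3.36 CPM against 1.24, 0.756 and 3.07, a log2 change of 1.11 ± 0.49 (edgeR adjusted p = 0.224). Ift20 had 7.03, 6.88 and 6.71 CPM against 5.79, 4.29 and 2.88 (0.67 ± 0.36, edgeR adjusted p = 0.344). Bbs4 had 14.5, 15.1 and 13.7 CPM, above 10.8 to 11.7, and Bbs2 24.8 to 28.1 CPM, below 29.6 to 32.3. For Ttc30b, Arl13b and Ofd1 the groups overlapped between the lines. Ttc30b had 10.9, 10.03 and 11.6 CPM in TerminaTOR cells (log2 change 0.05 ± 0.28), Arl13b 26.1, 28.1 and 25.9 (0.10 ± 0.16) and Ofd1 138, 132 and 114 (0.04 ± 0.09).

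The summed level of the 35 genes was 360 to 390 CPM without PDGF, 315 to 323 with PDGF, 290 to 322 with rapamycin, 397 to 416 with CHX and 378 to 408 in TerminaTOR cells. Ofd1 alone made up much of the sum. Because levels cannot be set against each other between genes, this is not its share of the RNA. Without Ofd1 the sums were 277 to 303, 230 to 234, 221 to 242, 272 to 291 and 263 to 276 CPM in the same order, so the libraries without PDGF and those with PDGF did not overlap in either sum.

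Other genes of the same machinery were described by list, with counts read beside the background of 16.9% called lower and 20.1% called higher with PDGF. Of the remaining IFT and motor subunits, 1 of 6 tested was called, the dynein light chain gene Tctex1d2 (log2 change -1.24 ± 0.49), and none was higher. Of other centriole and assembly genes 4 of 12 were lower and none higher, led by Cep97 (-1.91 ± 0.29), Sclt1 (-1.87 ± 0.45) and Ccp110 (-1.04 ± 0.39). Cep97 and Ccp110 cap the mother centriole and hold back cilium growth, and Sclt1 is a distal appendage protein like Cep164. The median of this list was -0.64. Of other BBSome and trafficking genes 2 of 11 were lower, Lztfl1 (-0.78 ± 0.24) and Tulp3 (-0.69 ± 0.08), an adaptor that brings receptors into cilia, and 2 were higher, with Rab11a, a GTPase of recycling endosomes, at 1.06 ± 0.14. Of other transition zone and inversin genes 1 of 8 was called, Ahi1, which was higher (1.80 ± 0.46). Among genes of cilium disassembly, Plk1 was lower (-0.78 ± 0.17) and Kif2a higher (0.48 ± 0.14) of 6 tested.

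Hedgehog pathway genes, whose signal runs through the cilium, were lower for 6 of 10 tested and higher for none with PDGF. The co-receptor Gas1 had 844 to 1012 CPM without PDGF and 232 to 244 with it (log2 change -1.97 ± 0.07), the ciliary receptor Gpr161 58.3 to 59.6 and 27.5 to 32.6 (-0.95 ± 0.14), and the transcription factor Gli3 206 to 211 and 125 to 139 (-0.66 ± 0.08). With rapamycin 5 of the 10 were lower than with PDGF alone (16.1% of all genes), among them Gli1 (-2.12 ± 0.73), Gli2 (-1.07 ± 0.31) and Gli3 (-0.81 ± 0.09), and 2 were higher (16.3% of all genes). With CHX 3 of the 10 were higher and 2 lower, shares not far from the 21.0% and 19.6% of all genes. The higher ones were Gli2 (1.006 ± 0.24), Sufu (0.75 ± 0.10), which restrains Gli proteins, and Gli3 (0.67 ± 0.08). In TerminaTOR cells 2 were higher, where 2.35% of all genes were, Gli2 with 24.7 to 33.0 CPM against 14.0 to 16.4 (0.88 ± 0.21, edgeR adjusted p = 0.0031) and Sufu (0.33 ± 0.09).

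With rapamycin against PDGF alone 16.3% of all genes were called higher and 16.1% lower. Of 11 BBSome and trafficking genes 2 were higher, among them Rab11a (0.49 ± 0.13), and 3 lower, among them Ehd3 (-1.80 ± 0.48) and Tulp3 (-1.06 ± 0.09). In the other lists of cilium parts none was higher, and the kinesin-2 subunit Kif3b (-0.57 ± 0.08), Tmem17 of the transition zone (-1.12 ± 0.29) and the disassembly kinases Nek2 (-1.68 ± 0.17) and Plk1 (-1.14 ± 0.21) were lower. With CHX, where 21.0% of all genes were higher and 19.6% lower, 3 trafficking genes were higher, among them Ehd3 (0.85 ± 0.35) and Ehd1 (0.50 ± 0.07), and 2 lower, among them Rab3ip (-0.99 ± 0.32). Invs (0.65 ± 0.22), which encodes inversin, and Plk1 (0.51 ± 0.18) were higher, and Ccp110 (-1.45 ± 0.48), Odf2 (-0.86 ± 0.26) and the disassembly scaffold Nedd9 (-2.005 ± 0.61) were lower. Of 9 RFX and FOXJ1 factors only Rfx1 had enough reads; it fell with PDGF (from 8.51 to 14.96 CPM without PDGF to 7.25 to 8.53 with it, log2 change -0.63 ± 0.25, with groups that overlapped narrowly) and was higher with CHX and PDGF than with PDGF alone (1.023 ± 0.25). Of 11 cell division genes 4 were lower and none higher with PDGF, beside 16.9% and 20.1% of all genes. With rapamycin 9 were lower and none higher than with PDGF alone, beside 16.1% and 16.3% of all genes.

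**Figure D5:**
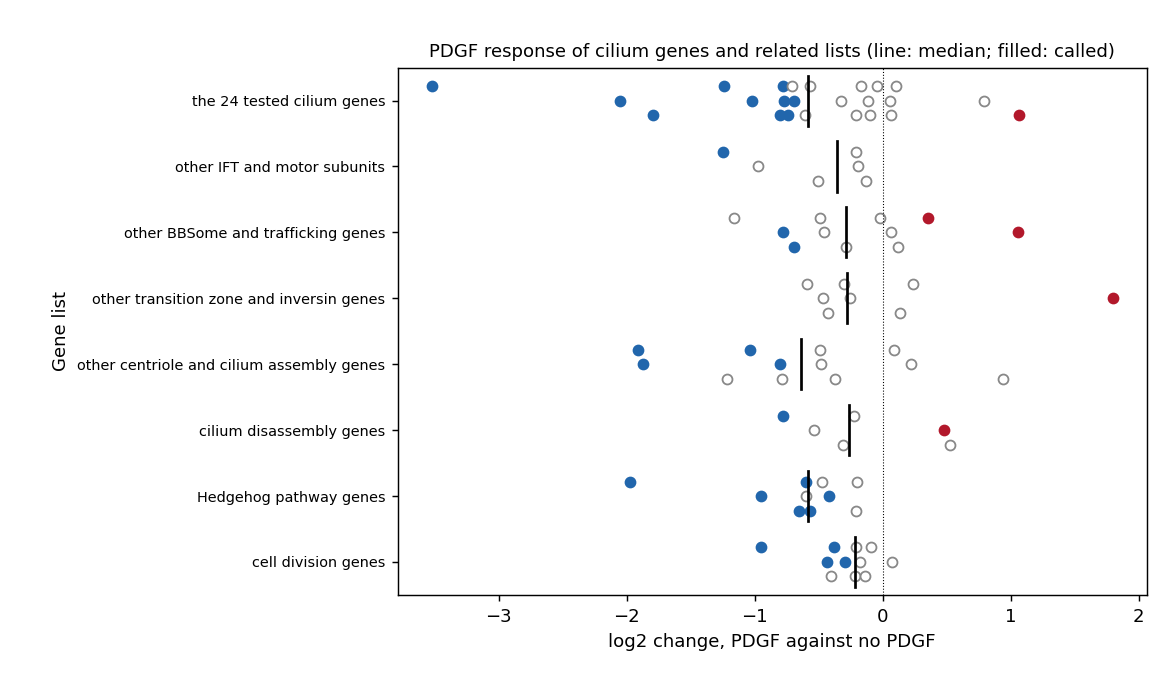
log2 change with PDGF of the tested genes in the cilium genes and 7 related lists (1 point per gene, filled red if called higher, blue if called lower), with the median of each list as a black line and 0 dotted. The 24 cilium genes have a median of -0.59, the Hedgehog genes -0.58 and the other centriole and assembly genes -0.64. The other IFT and motor subunits have a median of -0.36, and the other BBSome and trafficking genes -0.28. The other transition zone and inversin genes have -0.28, the disassembly genes -0.27 and the division genes -0.21.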

How the data were processed

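The files hold raw read counts per mouse transcript identifier, as deposited, for 15 libraries of poly-A RNA. HISAT2 2.2.1, HTSeq 0.9.1 and R 4.1.0 are named in the submitters' processing notes, which also name the human build hg38, although all identifiers are mouse; no source used here gives the mouse annotation behind the counts. Of 142446 identifiers, 141536 matched the GENCODE M21 annotation (GRCm38); the other 910, with 0.0309% of the counts, were dropped, and transcripts were summed to 55266 genes. edgeR 4.0.16 (R 4.3.3) fitted all 15 libraries with 1 mean per group, after its default low-count filter and TMM scaling, and its quasi-likelihood F test with Benjamini-Hochberg adjustment over 10603 genes called genes at an adjusted p under 0.05, with 10 residual degrees of freedom. DESeq2 1.42.0, limma 3.58.1 (voom), other scalings, filters and transcript choices, and fits without 1 library were alternatives. Promoters came from RefSeq (GRCm38.p6). Tests were checked on simulated counts. The members and lists were chosen with earlier results of these data known. All members are accounted for; members called in a comparison have their values per library, and each related list has up to 3 called genes with the largest log2 change per comparison.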

Additional observations from a re-analysis of the deposited data

Results flagged for a closer look

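The TerminaTOR effect (against mCherry cells, both with cycloheximide and PDGF) and the rapamycin effect (against PDGF alone) share no library, and the difference between them was tested in the same edgeR fit. Of the 24 tested cilium genes 2 had a higher and 1 a lower TerminaTOR effect, where 12.4% and 11.6% of all genes did. For Ift20 the difference was 1.871 ± 0.56 (log2, SE, edgeR adjusted p = 0.00813): its level was 6.71 to 7.03 CPM in TerminaTOR cells against 2.88 to 5.79 in their controls, and 1.85 to 2.51 with rapamycin against 3.58 to 6.20 with PDGF alone. For Arl13b it was -0.829 ± 0.23 (edgeR adjusted p = 0.0042), with the rise under rapamycin and overlapping levels between the lines. For Bbs4 it was 0.913 ± 0.34 (edgeR adjusted p = 0.0412). That call was lost in 11 of 22 alternatives, among them without rapamycin replicate 1 (0.69, adjusted p = 0.162). The TerminaTOR effect was not called on its own for Ift20, Arl13b or Bbs4, nor was the rapamycin effect for Bbs4. The rapamycin call of Ift20 depended on single libraries, as given above. The agents, the lines and cycloheximide differ together between these effects and cannot be told apart.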

How the results depend on the processing

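No cilium gene reversed its direction where it was called. Of the single-gene values under the alternatives, 2546 kept their side of the threshold, 93 lost the call and 36 gained it. With PDGF, cilium genes called lower fell from 10 to 6 with protein-coding transcripts only (an alternative chosen after seeing the data) and ran from 6 to 9 without 1 library. A mean count of at least 50 left 9 of the 24 cilium genes and 5006 genes in all to test. With PDGF 1 cilium gene was then called lower, beside 28.5% of all genes. For rapamycin against PDGF 0 were lower (27.6% of all genes), and for rapamycin against no PDGF 4 were (36.7%). For cycloheximide against no PDGF 0 were lower (32.6%). For cycloheximide against PDGF 1 was higher and 0 lower (28.6% and 28.4%), and 1 was higher in the difference of effects (22.9%). With rapamycin against PDGF, 2 lower became 1 with limma-voom, 5 with library-size scaling and 1 without the filter, and 0 to 2 without 1 library, with 1 to 2 higher. With cycloheximide against PDGF, 1 lower became 0 with limma-voom or without the filter and 0 to 2 without 1 library, with 3 to 6 higher. Library-size scaling gave 1 higher and 13 lower with cycloheximide against no PDGF. For the difference of effects, higher became 4 with library-size scaling and 1 without the filter (1 to 2 without 1 library), and lower 2 with limma-voom (1 to 2).

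Over all genes, library-size scaling gave 1379 higher and 3111 lower with PDGF (2128 and 1794 with TMM), 1918 and 4153 with rapamycin against no PDGF (2948 and 2708) and 1615 and 4400 with cycloheximide against no PDGF (2611 and 2417). The minimum of 50 gave 1430, 1861 and 1552 higher with cycloheximide against PDGF, rapamycin against no PDGF and cycloheximide against no PDGF, and coding transcripts 1484 and 1719 in the first and last. For TerminaTOR, 249 higher became 397 with only the groups compared and 141 to 172 without 1 library, and 273 lower became 169 without the filter and 154 to 195. The cause of these changes was not tested, beyond the fewer genes tested under the minimum of 50 and the coding transcripts.

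Deviations from the group mean had correlations from -0.0015 to 0.076 between libraries with the same replicate number. Between libraries with different numbers they ran from -0.0795 to 0.0616. Values this small do not decide whether the numbers pair the libraries. With the replicate number as a block, cilium genes higher with cycloheximide fell from 6 to 5 (Cep164, edgeR adjusted p = 0.0542), and the other counts of cilium genes were equal. Depth limits most the genes with under 60 reads in all, which were not tested.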
